A study of Mus musculus with 9 samples.

Results

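Transcripts of 34 imprinted genes were followed in 8-cell mouse embryos after knockdown of MFN1 or of H3.3. The members were taken by gene symbol from a list of imprinted genes and not by a measured value. They were chosen with earlier results of these data known. All 34 were found among the 55335 entries of each library. Of these, 12 are classed as maternally expressed, 21 as paternally expressed, and *Gnas* gives transcripts of both kinds. The classes come from the list and were not measured in these embryos. For *Ube3a*, *Igf2r*, *Grb10* and *Gnas* the class is disputed between tissues. Embryos came from ICR mice by in vitro fertilization and received siRNA in the zygote cytoplasm. Control zygotes were injected with nontargeting siRNA. For MFN1-KD the siRNA was directed against *Mfn1*, which encodes the mitochondrial fusion protein mitofusin 1, and for H3.3-KD against *H3f3a* and *H3f3b*, which both encode the histone variant H3.3. The study asked whether loss of MFN1 acts on early embryos through H3.3. Each group had 3 libraries, and each library was a pool of embryos, for which the labels give 5 to 10 embryos per group. A knockdown by injection lowers a transcript without removing it, and a pool gives no value for a single embryo. Nothing in the labels says whether the libraries of a group came from separate matings or injections, so the p-values measure the spread between these pools.

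Values were FPKM (fragments scaled to transcript length and to the fragments of the library). The depth of a library is therefore unknown, and a gene without signal is described as listed at 0. Genes above 0 FPKM numbered 21643 to 22507 in control, 23655 to 24820 in H3.3-KD and 15577 to 20842 in MFN1-KD, with the fewest in replicate 3. Between 20 members (MFN1-KD replicate 3) and 30 members (H3.3-KD replicate 2) were above 0 in a library. *Mfn1* was at 51.6, 22.6 and 23.8 FPKM in control and at 9.54, 4.40 and 1.15 in MFN1-KD. *H3f3a* lay between 1594 and 2110 FPKM in control and between 117 and 170 in H3.3-KD, and *H3f3b* between 2895 and 3166 and between 171 and 311, so the targeted transcripts were lowered in the groups labelled for them. Of 10 markers of the 8-cell embryo, 9 could be tested, and 6 were called higher in H3.3-KD and 0 lower (adjusted p under 0.05 in limma with more than a 2-fold change), beside 20.2% and 7.54% of all genes. Among them *Pou5f1*, a pluripotency factor, stood at only 5.10 to 8.90 FPKM in control and 0.30 to 3.68 in MFN1-KD against 63.1 to 392 in H3.3-KD. The others were *Klf5*, *Tead4*, *Tfap2c*, *Carm1* and *Cdx2*, with log2 fold changes of 1.36, 1.28, 1.36, 2.17 and 1.62. *Cdx2* was called in 5 of 16 alternatives and each of the other 5 in at least 14. Over the alternatives the log2 fold change went down to -0.003 for *Tead4*, 0.51 for *Tfap2c* and 0.95 for *Carm1*. Their adjusted p in limma reached 0.994, 0.209 and 0.104, whereas that of *Klf5* and *Pou5f1* reached 0.031 and 0.0067. *Cdx2* reached the mean of 1 FPKM needed for a test only through H3.3-KD, so its call carries that selection. It averaged 3.01 FPKM there, 0.08 in control and 0.02 in MFN1-KD. *Cdx2* and *Sox2*, factors of the trophectoderm and of pluripotent cells, averaged under 0.1 FPKM in control. Markers of cumulus and granulosa cells without *Amhr2* summed to between 0.10 and 1.31 FPKM in the 9 libraries. *Star* was the highest of these on average, at no more than 0.55. *Amhr2* itself lay between 10.2 and 66.1 FPKM, and with it the sums were 10.6 to 67.4 FPKM. It was called higher in H3.3-KD (1.11 ± 0.35 on the log2 scale, limma adjusted p = 0.0327). The call was kept in 9 of 17 alternatives, with a log2 fold change from 0.02 to 1.34 and adjusted p up to 0.968. The part of these shifts in the values of the imprinted genes was not tested.

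Imprinted genes are transcribed mainly from the copy inherited from one parent. For many of them, though not all, the choice is written in the germ line as DNA methylation at imprinting control regions. In early embryos this methylation is kept through genome-wide demethylation by zinc finger proteins such as ZFP57 with the corepressor TRIM28. Many maternally expressed members restrain growth, and many paternally expressed members promote it. At several loci a long noncoding RNA, or a retrogene in an intron of a host gene, shares the control region with its neighbours. Allele of origin was not measured here, and every value is the sum of both alleles. In these pools, fewer cells that transcribe a gene and less RNA per cell cannot be told apart.

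Sequence upstream of 4 members on which the results turn is shown first. They are members called in a knockdown (*Ube3a*, *Zrsr1*), a promoter shared by members that differed (*Peg3*), and a retrogene whose host moved without it (*Mcts2*). *Impact* was called as well, but no window of it was read. Each stretch was read 5′ to 3′ on the gene's strand from the 250 bases before a RefSeq start on GRCm38.p6 and was shortened where a protein-coding exon of GENCODE M21 begins. *Ube3a* (chr7:59228500-59228749, plus strand) has 24 CG dinucleotides, the substrate of DNA methylation, and *Zrsr1* (chr11:22971755-22972004, plus strand, in an intron of *Commd1*) has 8 in the same length. The stretch before *Peg3* (chr7:6730432-6730577, minus strand) is the whole of the 146 bases that separate its start from that of *Usp29*, which is read in the other direction. *Mcts2* (chr2:152686898-152687034, plus strand, in an intron of *H13*) holds the motif TGCCGC. Capitals mark CG dinucleotides in *Ube3a*, *Zrsr1* and *Peg3* and the motif in *Mcts2*.
Ube3a: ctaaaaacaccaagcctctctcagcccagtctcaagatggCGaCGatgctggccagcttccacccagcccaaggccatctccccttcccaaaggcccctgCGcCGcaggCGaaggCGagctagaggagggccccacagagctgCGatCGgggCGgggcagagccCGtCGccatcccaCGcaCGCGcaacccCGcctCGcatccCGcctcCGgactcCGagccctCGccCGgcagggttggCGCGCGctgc
Zrsr1: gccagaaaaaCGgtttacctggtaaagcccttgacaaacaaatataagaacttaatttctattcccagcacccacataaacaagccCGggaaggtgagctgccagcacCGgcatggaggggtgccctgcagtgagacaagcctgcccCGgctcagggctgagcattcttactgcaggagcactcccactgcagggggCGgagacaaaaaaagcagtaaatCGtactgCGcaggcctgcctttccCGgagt
Peg3: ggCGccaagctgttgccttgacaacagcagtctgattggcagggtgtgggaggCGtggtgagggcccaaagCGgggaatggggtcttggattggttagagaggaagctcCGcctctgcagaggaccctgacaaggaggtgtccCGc
Mcts2: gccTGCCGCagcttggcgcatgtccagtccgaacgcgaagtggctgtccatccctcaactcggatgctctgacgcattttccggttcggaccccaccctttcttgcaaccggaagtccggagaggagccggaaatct

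The motif TGCCGC, the hexamer that ZFP57 binds when its CG is methylated, was searched on both strands of the 250-base windows. A window was at hand for 28 members, and 6 of them held the motif (21.4%), namely *Mcts2*, *Meg3*, *Mest*, *Nap1l5*, *Plagl1* and *Zim1*. Among all 27025 genes with a window the share was 9.84%. A gene counted if any of its windows held the motif. Counted by window, 7 of the members' 43 held it (16.3%), against 8.68% of all 32851 windows. Members' windows held a median of 10 CG dinucleotides against 6 in all windows. These letters describe the windows only, and the control regions themselves often lie elsewhere.

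Of the 34 members, 16 averaged at least 1 FPKM across the 9 libraries and were tested, and 18 were low. The tested members were 5 of the 12 maternally expressed genes, *Gnas*, and 10 of the 21 paternally expressed genes. In control the highest levels per length were those of *Snrpn* at 61.4 ± 3.40 FPKM (SD, n = 3), *Phlda2* at 46.3 ± 12.8, *Mcts2* at 45.6 ± 8.93, *Gnas* at 27.2 ± 3.47, *Igf2r* at 26.8 ± 9.06 and *Impact* at 26.7 ± 2.52. The last 3 differed by less than their spread, as did *Phlda2* and *Mcts2*. They were followed by *Ube3a* at 19.8 ± 9.04, *Sgce* at 13.2 ± 3.23 and *Usp29* at 11.2 ± 4.67, and no other member averaged above 6 FPKM in control. A pair of members reached this mean through the group in which they were high, *Peg3* through MFN1-KD and *Zrsr1* through H3.3-KD, so a difference in those groups was built into their selection.

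**Figure D1:**
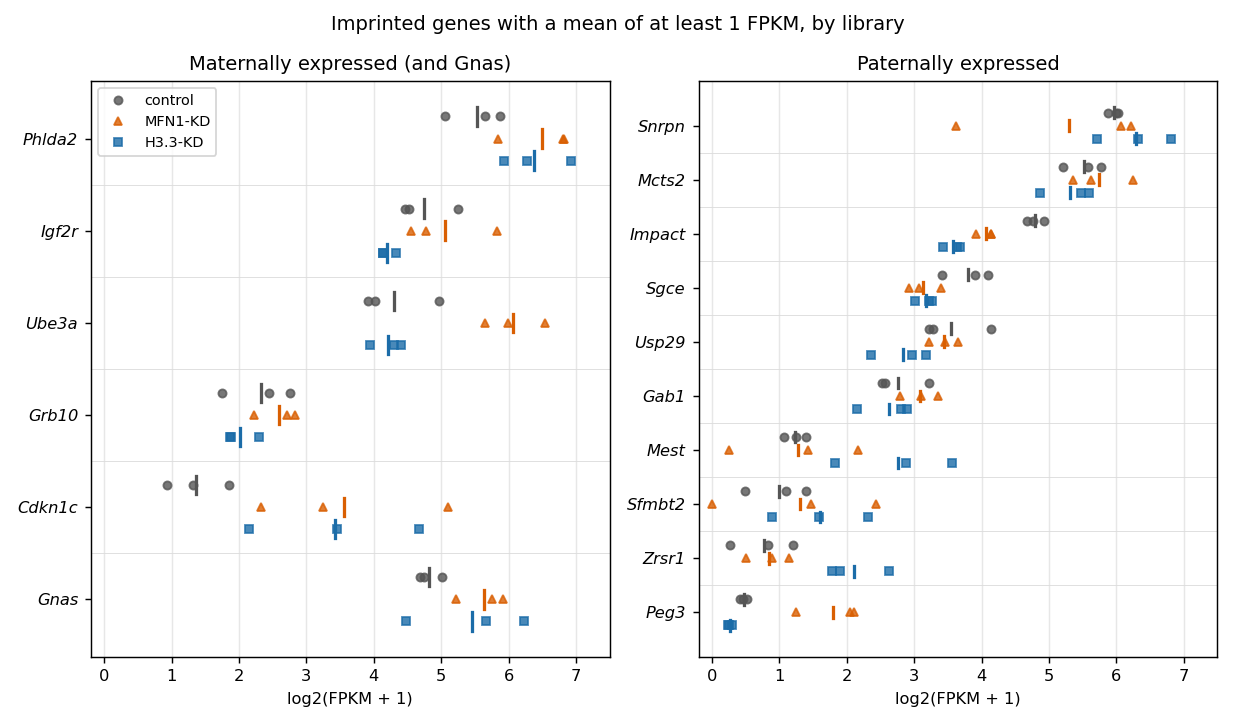
Level of the 16 members that averaged at least 1 FPKM, as log2(FPKM + 1), in each of the 9 libraries. Points are libraries, vertical bars are group means of the log values, the left panel holds 5 maternally expressed genes and *Gnas*, and the right panel holds 10 paternally expressed genes. *Ube3a* and *Peg3* of MFN1-KD lie to the right of all other libraries, *Zrsr1* of H3.3-KD lies to the right, and *Impact* of both knockdowns lies to the left of control.

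Expression was compared as log2(FPKM + 1) in a model fitted to all 13011 genes that averaged at least 1 FPKM. A gene was called at a Benjamini-Hochberg adjusted p under 0.05 with more than a 2-fold change. In MFN1-KD 1 of the 16 members was called higher, *Ube3a*, and 0 lower. Among all genes 1.09% were called higher and 2.05% lower. At the threshold of the study, an unadjusted p under 0.05 with more than 2-fold, 3 members were higher (*Cdkn1c*, *Peg3* and *Ube3a*) and 0 lower, beside 5.02% and 9.05% of all genes. *Peg3* was tested only through its MFN1-KD level, with a mean of 0.29 FPKM over the other groups. The 3 libraries lay above all 3 controls in 4 members (*Cdkn1c*, *Gnas*, *Peg3* and *Ube3a*) and below them in 2 (*Impact* and *Sgce*), against 11.4% and 16.8% of all genes. The median log2 fold change of the 16 members was 0.29 and that of all genes -0.08, with 12 of the 16 above the latter. By class, the 5 maternally expressed members had a median of 0.96, all 5 above the median of all genes, and the 10 paternally expressed members had 0.06, with 6 above it. Over all alternatives the maternally expressed median stayed 0.77 to 1.39 above that of all genes. The paternally expressed median lay from -0.51 to 0.20 of it. The -0.51 came from the filter at 10 FPKM, which left 3 paternally expressed members, and the lowest value otherwise was -0.02.

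In H3.3-KD 1 member was called higher, *Zrsr1*, and 1 lower, *Impact*, whereas 20.2% of all genes were called higher and 7.54% lower. *Zrsr1* was tested only through its H3.3-KD level, with a mean of 0.79 FPKM over the other groups, so its call carries that selection. At the threshold of the study 3 members were higher (*Cdkn1c*, *Mest* and *Zrsr1*) and 1 lower (*Impact*), beside 23.9% and 9.39% of all genes. The libraries lay above all controls in 4 members (*Cdkn1c*, *Mest*, *Phlda2* and *Zrsr1*) and below them in 5 (*Igf2r*, *Impact*, *Peg3*, *Sgce* and *Usp29*), where all genes gave 34.5% and 18.9%. The members' median was -0.12 and that of all genes 0.26, with 7 of the 16 above the latter. The 5 maternally expressed members had a median of -0.09 and the 10 paternally expressed members -0.18. Relative to all genes these medians ranged over the alternatives from -0.51 to 0.25 and from -0.53 to -0.21. Upper-quartile scaling turned the median of all genes to -0.15 and the members' calls to 0 higher and 4 lower (*Igf2r*, *Impact*, *Sgce* and *Usp29*). Of all 13011 genes, 1534 were then called higher and 1880 lower. Median-ratio scaling, with a median of 0.00, left *Impact* as the only member called, beside 1918 genes called higher and 1505 lower. Both knockdowns were set against the same 3 controls, so their changes are given side by side and are not independent of each other.

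Compared directly, MFN1-KD exceeded H3.3-KD in 2 members, *Ube3a* and *Peg3*, and fell under it in 1, *Zrsr1*, with 9.44% and 25.8% of all genes called in these directions. *Peg3* and *Zrsr1* were each tested only through the group in which they were high, so these differences were built into their selection. No control library enters the difference between the knockdowns, although controls contribute to the estimate of the spread.

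**Figure D2:**
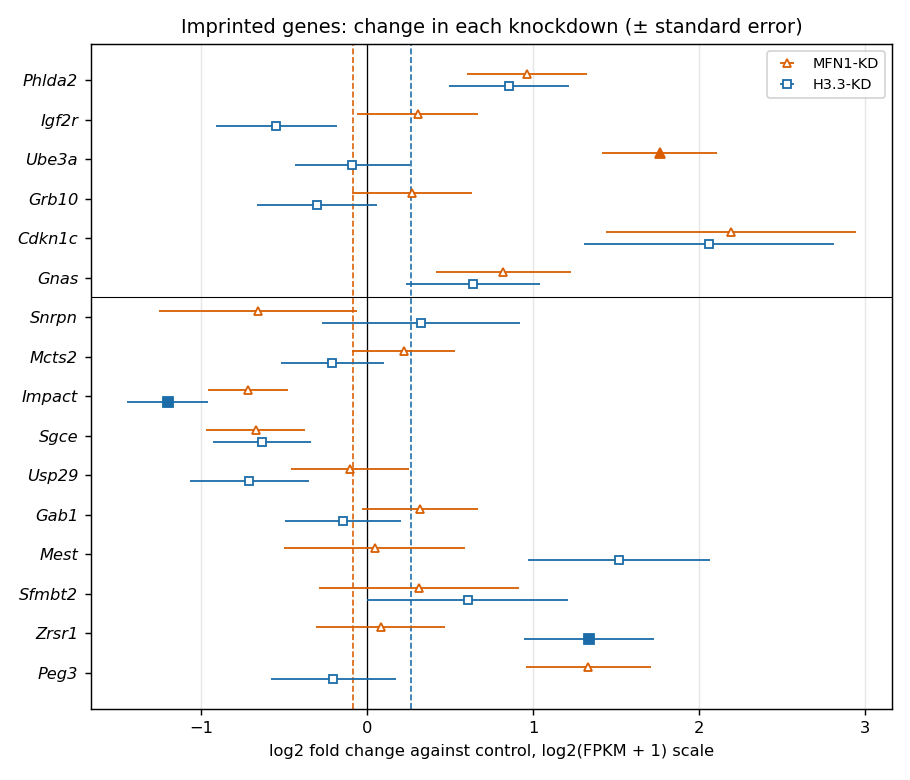
Log2 fold change against control of the 16 tested members, on the log2(FPKM + 1) scale, with standard errors as bars. Triangles are MFN1-KD, squares are H3.3-KD, filled symbols are called, dashed lines are the medians of all genes (-0.08 and 0.26), and maternally expressed genes and *Gnas* stand above the horizontal line. Filled symbols are *Ube3a* in MFN1-KD and *Zrsr1* and *Impact* in H3.3-KD, of which upper-quartile scaling keeps *Ube3a* and *Impact* and adds *Igf2r*, *Sgce* and *Usp29* as lower in H3.3-KD.

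Among the maternally expressed genes, *Ube3a* (chr7:59228750-59311536) encodes a ubiquitin ligase whose imprint is known chiefly from neurons. It stood at 30.3, 15.2 and 14.1 FPKM in control, at 49.4, 62.5 and 91.9 in MFN1-KD and at 18.7, 14.3 and 20.1 in H3.3-KD. Every MFN1-KD library exceeded every other library, while H3.3-KD lay within the control range. It rose by 1.76 ± 0.35 (SE) on the log2 scale after MFN1-KD (adjusted p = 0.0359), with -0.09 ± 0.35 after H3.3-KD, and MFN1-KD exceeded H3.3-KD by 1.85 ± 0.35 (adjusted p = 0.00225). The call against control was kept in 8 of 17 alternatives, with adjusted p from 0.0211 to 0.159 and a log2 fold change from 1.10 to 2.10. The call against H3.3-KD was kept in 16 of 17 and was lost after removal of the trend over GC content and length (0.87, adjusted p = 0.0513). Of the 100-base stretches in *Ube3a* transcripts 23.9% are shared with other genes, mostly with the long noncoding *Snhg14* that runs antisense to it, and without strand the reads of these genes cannot be told apart.

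*Cdkn1c* (chr7:143458339-143461050) encodes p57, an inhibitor of cyclin-dependent kinases. Control libraries held 1.49, 0.90 and 2.60 FPKM, MFN1-KD 33.4, 8.50 and 3.99, and H3.3-KD 3.43, 9.92 and 24.5. All 6 knockdown libraries lay above the controls, and the libraries of each knockdown differed widely among themselves. The log2 fold change was 2.19 ± 0.75 in MFN1-KD (adjusted p = 0.122) and 2.06 ± 0.75 in H3.3-KD (adjusted p = 0.0608), neither of which passed. The second was called in 4 of 16 alternatives, for example with only the 6 libraries compared (adjusted p = 0.0310). Transcripts of *Cdkn1c* share 21.8% of their 100-base stretches with *Gm44732*.

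*Phlda2* (chr7:143501545-143503150), a neighbour of *Cdkn1c* whose product limits placental growth, was the most abundant maternally expressed member. It was at 32.4, 57.5 and 49.0 FPKM in control, 56.3, 110.8 and 112.2 in MFN1-KD and 76.6, 60.3 and 120.3 in H3.3-KD. H3.3-KD lay above control throughout, and replicate 1 of MFN1-KD fell inside the control range. Its log2 fold change was 0.96 ± 0.36 in MFN1-KD (adjusted p = 0.147) and 0.85 ± 0.36 in H3.3-KD (adjusted p = 0.0970). *Slc22a18*, a transporter gene that lies between *Cdkn1c* and *Phlda2*, reached no more than 0.06 FPKM in any library.

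*Igf2r* (chr17:12682406-12769664) encodes the receptor that clears the growth factor IGF2. Control libraries were at 37.2, 22.0 and 21.1 FPKM, MFN1-KD at 56.0, 26.4 and 22.4 and H3.3-KD at 16.5, 16.7 and 19.1. H3.3-KD was lower than every control library, at -0.55 ± 0.37 (adjusted p = 0.285), and was called lower in 2 of 17 alternatives, upper-quartile scaling and removal of the GC and length trend. In MFN1-KD the log2 fold change was 0.30 ± 0.37 (adjusted p = 0.662), and replicate 1 alone exceeded the controls. Its antisense neighbour *Airn*, the paternal noncoding RNA that silences *Igf2r*, was listed at 0 in 6 libraries and was at most 0.31 FPKM.

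*Grb10* (chr11:11930508-12038683), an adaptor that restrains insulin and IGF signalling, stayed between 2.37 and 6.10 FPKM in all libraries. Control held 5.78, 4.45 and 2.37 FPKM, MFN1-KD 3.67, 5.56 and 6.10, and H3.3-KD 2.70, 3.92 and 2.64, with full overlap. The log2 fold changes were 0.27 ± 0.36 and -0.30 ± 0.36, neither called. *Gnas* (chr2:174284320-174346744), the complex locus of the stimulatory G protein subunit, was at 31.2, 24.6 and 25.9 FPKM in control, 53.0, 59.7 and 36.4 in MFN1-KD and 49.5, 73.7 and 21.2 in H3.3-KD. MFN1-KD lay above control, and replicate 3 of H3.3-KD lay below it. The changes of 0.82 ± 0.41 (adjusted p = 0.256) and 0.64 ± 0.41 (adjusted p = 0.260) did not pass. Without H3.3-KD replicate 3 *Gnas* rose by 1.13 in H3.3-KD (adjusted p = 0.0261).

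*Impact* (paternally expressed), whose product restrains the kinase GCN2 in the control of translation, was at 26.1, 24.5 and 29.4 FPKM in control, 16.6, 16.7 and 14.2 in MFN1-KD and 11.4, 9.77 and 11.9 in H3.3-KD. The 3 groups were separate from each other, with control highest and H3.3-KD lowest. *Impact* fell by 1.20 ± 0.24 on the log2 scale in H3.3-KD (adjusted p = 0.00455), a call kept in 17 of 17 alternatives (adjusted p from 0.00145 to 0.0263). In MFN1-KD the log2 fold change was -0.72 ± 0.24 (adjusted p = 0.117), which did not pass in any alternative (0.0699 to 0.327). The difference between the knockdowns was 0.48 ± 0.24 (adjusted p = 0.138).

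*Peg3* and *Usp29* start back to back from the stretch printed above. *Peg3* (chr7:6703892-6730431), a zinc finger gene, was at 0.34, 0.43 and 0.38 FPKM in control, 1.38, 3.14 and 3.29 in MFN1-KD and 0.23, 0.19 and 0.18 in H3.3-KD. Its groups were separate, and it was low outside MFN1-KD, the group through which alone it was tested. The log2 fold change was 1.33 ± 0.38 in MFN1-KD (adjusted p = 0.0774), which did not pass here or in any alternative, and -0.20 ± 0.38 in H3.3-KD. MFN1-KD exceeded H3.3-KD by 1.54 ± 0.38 (adjusted p = 0.00903), in 16 of 16 alternatives. *Usp29* (chr7:6730578-6967219), a deubiquitinase gene, was at 16.6, 8.70 and 8.35 FPKM in control, 9.98, 11.6 and 8.35 in MFN1-KD and 8.05, 4.15 and 6.84 in H3.3-KD. Its MFN1-KD libraries lay within the control range (-0.10 ± 0.36), and its H3.3-KD libraries lay below it (-0.71 ± 0.36, adjusted p = 0.157). *Zim1*, the maternally expressed neighbour, was listed at 0 in 7 libraries and reached 1.47 FPKM in MFN1-KD replicate 3.

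*Zrsr1* and *Mcts2* are retrogenes, copies of X-linked genes made by reverse transcription. *Zrsr1* (chr11:22972005-22976496), related to splicing factors, was at 1.30, 0.20 and 0.78 FPKM in control, 0.86, 0.42 and 1.20 in MFN1-KD and 2.42, 2.73 and 5.18 in H3.3-KD. H3.3-KD exceeded every other library, and the gene reached the mean needed for a test only through this group. H3.3-KD gave a rise of 1.33 ± 0.39 on the log2 scale (adjusted p = 0.0257), called in 8 of 16 alternatives, and not under median-ratio scaling (1.11, adjusted p = 0.0571) or upper-quartile scaling (1.01, adjusted p = 0.0874). In MFN1-KD it was 0.08 ± 0.39, and MFN1-KD minus H3.3-KD was -1.25 ± 0.39 (adjusted p = 0.0274), a difference called in 6 of 16 alternatives.

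The host of *Zrsr1* went the other way. *Commd1*, a gene of copper and endosome biology, fell by 2.20 ± 0.44 on the log2 scale in H3.3-KD (adjusted p = 0.00431), from 41.5, 51.4 and 48.0 FPKM to 13.7, 14.7 and 3.87. In MFN1-KD it was at 23.1, 31.8 and 16.5 FPKM, below control, at -0.99 ± 0.44 (adjusted p = 0.206). The parent gene *Zrsr2* was at 22.8 ± 4.94 FPKM in control and 28.6 ± 8.52 in H3.3-KD (0.29 ± 0.30 on the log2 scale, adjusted p = 0.486).

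For *Mcts2* (chr2:152687035-152687946), a copy of the translation factor gene *Mcts1*, the values were 36.1, 53.8 and 46.9 FPKM in control, 75.2, 39.8 and 48.4 in MFN1-KD and 43.4, 47.5 and 28.1 in H3.3-KD. The groups overlapped, and the log2 fold changes were 0.22 ± 0.31 and -0.21 ± 0.31. Its host *H13*, which encodes signal peptide peptidase, rose by 1.71 ± 0.29 in H3.3-KD (adjusted p = 0.00196), from 12.5, 9.36 and 8.12 FPKM to 35.1, 35.7 and 32.9. In MFN1-KD *H13* was at 3.63, 6.43 and 4.20 FPKM, below control, at -0.94 ± 0.29 (adjusted p = 0.0948). *Mcts1* averaged 133.6 ± 30.2 FPKM in control, 85.9 ± 11.0 after MFN1-KD and 74.8 ± 29.9 after H3.3-KD, and neither difference passed.

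Of the 10 host, overlapping and parent genes examined, 6 were tested, and in H3.3-KD 2 were called higher (*H13* and *Blcap*) and 1 lower (*Commd1*), where 20.2% of all genes were called higher and 7.54% lower. *Blcap*, the host of *Nnat*, was at 4.60, 6.76 and 5.80 FPKM in control and 18.6, 11.9 and 17.0 in H3.3-KD, a rise of 1.32 ± 0.41 (adjusted p = 0.0345) that held in 5 of 16 alternatives and in neither scaling, while *Nnat* itself stayed under 1 FPKM. In MFN1-KD 0 of the 6 were called by limma, beside 1.09% of all genes higher and 2.05% lower. Of the 6, 2 (*Commd1* and *H13*) had an unadjusted p under 0.05, 0.0458 and 0.00862, as had 3025 of all 13011 genes. *Copg2*, which overlaps *Mest*, had too low a mean to be tested, with 0.05, 0.88 and 0.23 FPKM in control and 1.66, 1.76 and 1.51 in H3.3-KD.

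**Figure D3:**
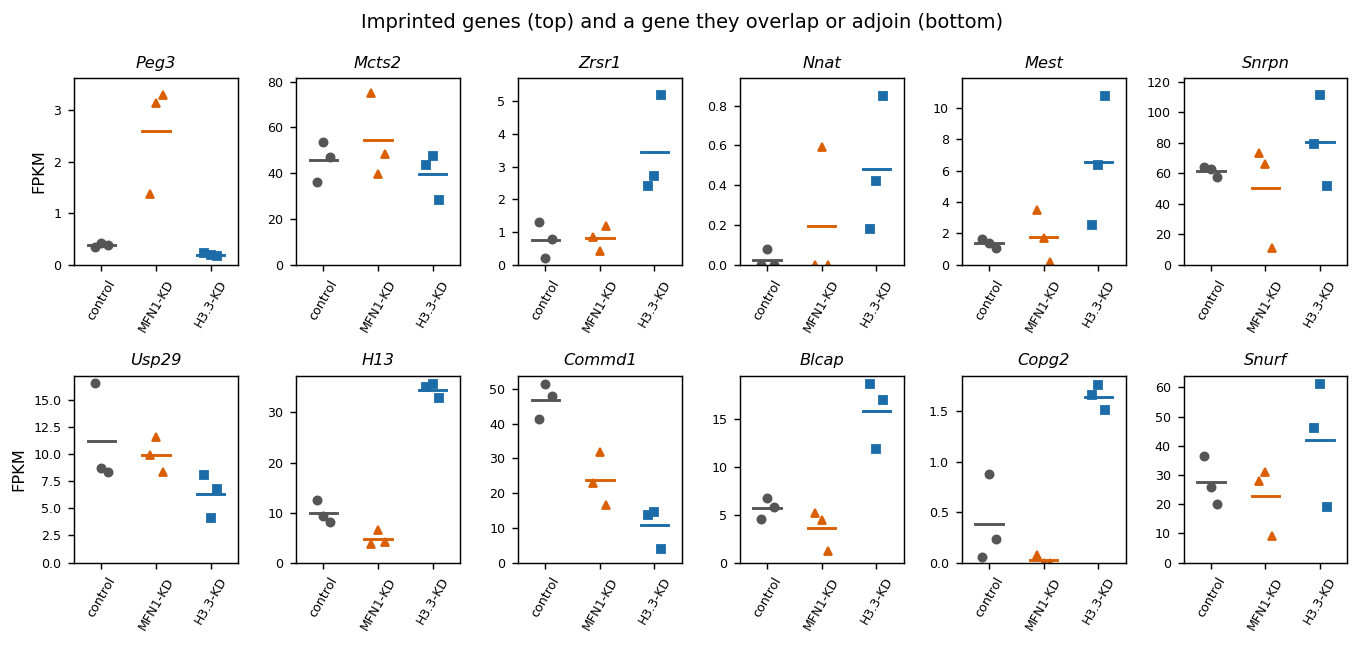
FPKM of 6 imprinted genes in the top row and, below each, a gene that overlaps or adjoins it. Points are libraries, lines are group means, and every vertical axis starts at 0 with its own scale. In H3.3-KD *H13* and *Blcap* rose and *Commd1* fell, while *Mcts2* overlapped control, and the rise of *Blcap* was not called after either scaling.

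*Mest* (chr6:30723547-30748465), a gene of the hydrolase fold expressed in mesoderm, was at 1.64, 1.36 and 1.10 FPKM in control, 3.48, 1.69 and 0.19 in MFN1-KD and 2.53, 6.37 and 10.8 in H3.3-KD. All H3.3-KD libraries exceeded control, at 1.52 ± 0.55 (adjusted p = 0.0574), which passed the threshold of the study but was not called. It was called in 4 of 16 alternatives. In MFN1-KD the log2 fold change was 0.04 ± 0.55, and 0.56 without replicate 3. Transcripts of *Mest* share 31.7% of their 100-base stretches with *Copg2*.

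*Snrpn* (chr7:59982495-60140219), which encodes a protein of the spliceosome, was at 63.9, 62.7 and 57.5 FPKM in control, 73.5, 66.3 and 11.3 in MFN1-KD and 79.4, 111.2 and 51.5 in H3.3-KD. Control libraries lay close together, and MFN1-KD replicate 3 lay far below all others. The log2 fold change of -0.66 ± 0.60 in MFN1-KD turned to 0.18 without that library, and H3.3-KD gave 0.32 ± 0.60. *Snurf*, read from the same transcript as *Snrpn*, was also lowest in that library, with 27.9, 31.0 and 9.11 FPKM in MFN1-KD. The other paternally expressed genes of this region, the target of Prader-Willi deletions in humans, were low. *Magel2* was listed at 0 in all 9 libraries, *Ndn* ranged from 0.17 to 1.17 FPKM and *Mkrn3* from 0.00 to 1.10.

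*Sgce* (chr6:4674350-4747207), the epsilon-sarcoglycan gene, was at 14.0, 9.70 and 16.0 FPKM in control, 9.58, 7.40 and 6.58 in MFN1-KD and 8.65, 7.10 and 8.34 in H3.3-KD. Both knockdowns lay below control, at -0.67 ± 0.30 (adjusted p = 0.206) and -0.63 ± 0.30 (adjusted p = 0.132), and neither was called. *Peg10*, the retrotransposon-derived gene that starts beside *Sgce* in the other direction, was at most 0.14 FPKM. *Gab1*, an adaptor of receptor tyrosine kinases imprinted in placenta, stayed between 3.45 and 9.21 FPKM with overlapping groups (0.32 ± 0.35 and -0.15 ± 0.35). *Sfmbt2*, a Polycomb gene likewise imprinted in placenta, was at 1.63, 1.13 and 0.40 FPKM in control, 1.77, 4.41 and 0 in MFN1-KD and 1.99, 3.96 and 0.86 in H3.3-KD. Its groups overlapped, and its standard error of 0.60 in both comparisons stood beside changes of 0.31 and 0.60.

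The 18 low members were 7 maternally expressed genes (*H19*, *Kcnq1*, *Meg3*, *Mirg*, *Rian*, *Slc22a18* and *Zim1*) and 11 paternally expressed genes (*Airn*, *Dlk1*, *Igf2*, *Kcnq1ot1*, *Magel2*, *Mkrn3*, *Nap1l5*, *Ndn*, *Nnat*, *Peg10* and *Plagl1*). Of these, 6 reached 1 FPKM in at least 1 library and 12 never did. They include the noncoding RNAs *H19*, *Airn*, *Kcnq1ot1* and *Mirg*, each under 1 FPKM throughout, and the growth factor gene *Igf2*, which was at most 0.90. Transcripts of *Igf2* share 75.7% of their 100-base stretches with *Gm49394*, so reads of *Igf2* may have been counted elsewhere. *Plagl1*, a zinc finger gene, and *Nap1l5*, a retrogene, reached no more than 0.85 and 0.23 FPKM.

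Of the low members, 4 belong to the *Dlk1*-*Meg3* domain. *Dlk1*, a paternally expressed ligand-like membrane protein, was listed at 0 in all control and MFN1-KD libraries and was at 0.80, 1.19 and 3.58 FPKM in H3.3-KD. When low values were not filtered, it was called higher in H3.3-KD (log2 fold change 1.39, limma adjusted p = 0.0276), as were 2176 of 32672 genes. That setting still needed a value above 0 in 1 library, which *Dlk1* had only in H3.3-KD, so its call carries this selection. *Rian*, a maternally expressed noncoding RNA of the same domain, was at 0.16, 0.35 and 0.23 FPKM in control, 3.90, 1.15 and 0.80 in MFN1-KD and 0.09, 0.23 and 0.46 in H3.3-KD. Every MFN1-KD library exceeded the others, and with no filter the log2 fold change was 1.10 (adjusted p = 0.287), which did not pass. *Meg3* was listed at 0 in all controls and in MFN1-KD replicate 3 and H3.3-KD replicate 1. It was at 2.04 and 0.05 FPKM in the other MFN1-KD libraries and at 1.34 and 0.62 in those of H3.3-KD, so its groups overlapped. *Mirg* was listed at 0 in 8 of the 9 libraries.

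**Figure D4:**
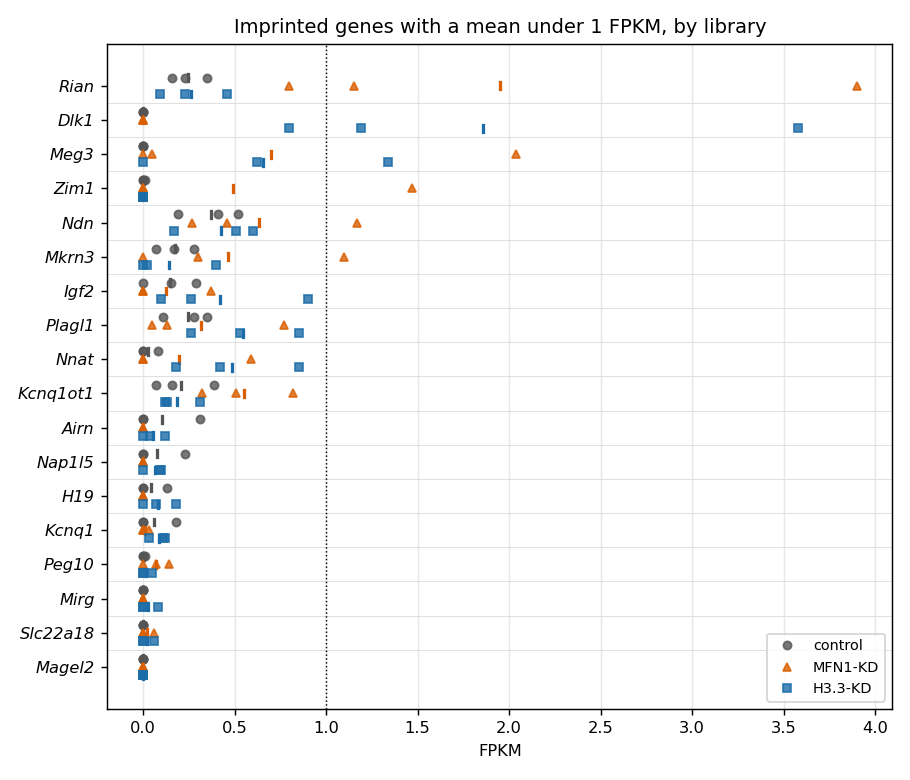
FPKM of the 18 members with a mean under 1 FPKM in each library, on a linear axis. Points are libraries, vertical bars are group means, and the dotted line is 1 FPKM. Most points lie at or near 0, with *Dlk1* above 0 in H3.3-KD and *Rian* highest in MFN1-KD replicate 1 at 3.90 FPKM.

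Summed over the 12 maternally expressed members, libraries held 89.4 to 107.4 FPKM in control, 106.9 to 188.0 in H3.3-KD and 204.7 to 238.9 in MFN1-KD. Over the 21 paternally expressed members the sums were 166.5 to 171.5, 132.8 to 202.7 and 104.95 to 200.04 FPKM. The sums are given as a description, because a few abundant genes set them.

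Genes that establish, protect or erase imprints were set beside the members. Of 35 such genes 32 were tested, and in H3.3-KD 4 were called higher (*Mbd3*, *Zfp57*, *Hira* and *Ctcf*) and 0 lower, the latter with *Dppa3* at an adjusted p of 0.00250 but less than a 2-fold change. Of all genes 20.2% were called higher and 7.54% lower, and whether the list differs from these shares was not tested. *Zfp57*, the zinc finger protein that binds methylated control regions, was at 5.08, 6.87 and 3.63 FPKM in control and 15.0, 34.3 and 23.6 in H3.3-KD, a rise of 1.99 ± 0.43 (adjusted p = 0.00618). *Ctcf*, the insulator protein of the *H19* control region, went from 27.5, 19.4 and 19.8 FPKM to 54.1, 76.0 and 64.5 (1.51 ± 0.28, adjusted p = 0.00322). *Hira*, the chaperone that deposits H3.3, rose by 1.95 ± 0.57 (adjusted p = 0.0252), and *Mbd3*, a subunit of the NuRD complex, by 2.03 ± 0.25 (adjusted p = 0.000386). *Zfp57* was called in 17 of 17 alternatives, *Ctcf* and *Mbd3* in 16 and *Hira* in 8. The median of the 32 was 0.18, below the 0.26 of all genes.

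In MFN1-KD 1 of the 32 was called higher, *Ezh2*, the Polycomb methyltransferase that silences some imprinted genes, and 0 lower, beside 1.09% and 2.05% of all genes. *Ezh2* was at 148.4, 98.9 and 75.4 FPKM in control, 216.4, 257.5 and 403.8 in MFN1-KD and 83.3, 78.4 and 76.6 in H3.3-KD, a rise of 1.44 ± 0.30 in MFN1-KD (adjusted p = 0.0382) called in 8 of 17 alternatives. At the threshold of the study 2 were lower, *Dnmt3l* (-1.10 ± 0.46) and *Zfp42* (-1.02 ± 0.38), beside 9.05% of all genes. *Trim28*, the corepressor of ZFP57, was at 436.5 ± 99.4 FPKM in control and 689.4 ± 56.3 in MFN1-KD, above all controls, at 0.68 ± 0.21 (adjusted p = 0.0919). *Dppa3*, which protects the maternal genome from demethylation, was the most abundant of the list. It averaged 12699 ± 1791 FPKM in control, 18441 ± 1833 after MFN1-KD and 6889 ± 741 after H3.3-KD, and MFN1-KD exceeded H3.3-KD by 1.42 ± 0.16 (adjusted p = 0.000139). Directly compared, MFN1-KD exceeded H3.3-KD in 4 of these 32 genes and lay under it in 4, beside 9.44% and 25.8% of all genes.

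**Figure D5:**
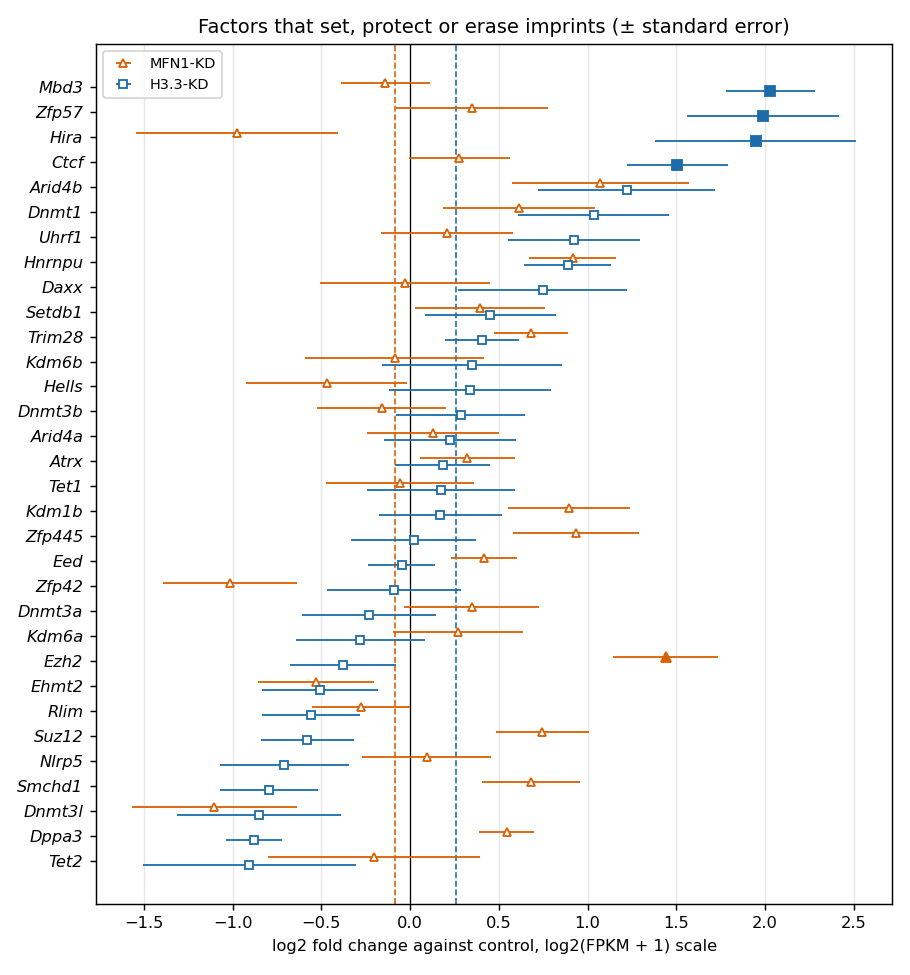
Log2 fold change against control, on the log2(FPKM + 1) scale with standard errors, of the 32 tested genes that set, protect or erase imprints, ordered by the change in H3.3-KD. Filled symbols are called and dashed lines are the medians of all genes. *Mbd3*, *Zfp57*, *Hira* and *Ctcf* are filled in H3.3-KD, and *Ezh2* is filled in MFN1-KD.

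A further 30 imprinted genes outside the members were taken for comparison, of which 12 were tested. In H3.3-KD 4 were called higher, *Ago2*, *Tssc4*, *Nap1l4* and *Jade1*, and 0 lower by limma at the adjusted p or the threshold of the study, beside 20.2% and 7.54% of all genes at the adjusted p. *Ago2*, the Argonaute protein of RNA interference, was at 10.9, 8.45 and 5.42 FPKM in control and 48.9, 61.6 and 62.4 in H3.3-KD, a rise of 2.70 ± 0.34 (adjusted p = 0.000406). *Tssc4* rose by 1.96 ± 0.33 (adjusted p = 0.00196) and *Nap1l4*, a nucleosome assembly gene, by 1.24 ± 0.25 (adjusted p = 0.00436). Both lie in the cluster of *Cdkn1c* and *Phlda2*. *Jade1* rose by 1.37 ± 0.45 (adjusted p = 0.0406). *Ago2* was called in 17 of 17 alternatives, *Tssc4* in 15 and *Jade1* in 8 of 16, and *Nap1l4* in 14 of 17, with neither scaling among those of *Jade1* and *Nap1l4*. In MFN1-KD 0 of the 12 were called by limma, beside 1.09% of all genes higher and 2.05% lower. At the threshold of the study 1 was higher (*Jade1*, 1.31 ± 0.45) and 1 lower (*Ddc*, -1.19 ± 0.36), beside 5.02% and 9.05% of all genes. The median of the 12 was 0.57 for H3.3-KD and 0.12 for MFN1-KD, where all genes had 0.26 and -0.08.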

How the data were processed

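RNA from pools of 8-cell embryos was amplified by Smart-Seq2 from an oligo-dT primer. The authors trimmed reads with cutadapt 1.16 and mapped them to mm10 with STAR, and deposited 1 table of FPKM values with 2 decimals for each library. Neither the program that gave FPKM nor its annotation or strand setting is given in the sources used here, and read counts were not analysed. The study tested expression with Deseq2. Here log2(FPKM + 1) of the 13011 genes averaging at least 1 FPKM was fitted over all 9 libraries with limma 3.58.1 (trend and robust options, no covariate) in R 4.3.3, with Benjamini-Hochberg adjustment over all genes tested, and the procedure was tested on simulated data. A fold change on this scale understates the change of low genes. Depth is unknown without counts, so precision rests on the spread of 3 libraries a group. Samples were grouped by their titles. The members and gene lists were chosen with earlier results of these data known. Named genes were all 34 members, the targeted genes and, of each other list, the genes called (at most 6 a knockdown) and the 2 of highest mean, and genes named beside a result as its neighbours. *Copg2*, *Zrsr2*, *Sox2*, *Ddc*, *Dnmt3l*, *Zfp42*, *Suz12*, *Smchd1*, *Inpp5f* and *Zp2* were named for their place or after their values were seen. Positions and shared 100-base stretches came from GENCODE M21, in which 53647 of the 55335 symbols were found, and sequences from RefSeq (GRCm38.p6). The alternatives were a pseudocount of 0.1, no filter on low values, a filter at 10 FPKM, libraries scaled by median ratios or upper quartiles, a fit to the 6 libraries of a comparison alone, replicate numbers as a block, a correction of every library for GC content and length (known for 98.5% of the genes tested), and each library left out in turn. Figures were drawn with matplotlib 3.10.9 under Python 3.11.15.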

Additional observations from a re-analysis of the deposited data

Results flagged for a closer look

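The members for which the knockdowns differed from each other in the direct comparison are given here with that difference, MFN1-KD minus H3.3-KD on the log2(FPKM + 1) scale. *Ube3a* differed by 1.8514, with all 3 MFN1-KD libraries above all 3 H3.3-KD libraries (adjusted p from limma = 0.00225). *Peg3* differed by 1.5377, also without overlap (adjusted p = 0.00903), and its level was under 1 FPKM in every library outside MFN1-KD. *Zrsr1* differed by -1.254, with H3.3-KD the higher group without overlap (adjusted p = 0.0274), and its level was at most 1.30 FPKM outside H3.3-KD. *Peg3* and *Zrsr1* each reached the mean needed for a test only through the higher group. Their differences carry this selection, which does not apply to *Ube3a*.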

How the results depend on the processing

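Depth is unknown, so no counting error can be given, also for values under 1 FPKM. Of the alternatives for single members, 701 kept direction and side of the threshold, 24 became called, 28 were no longer called and 36 changed sign, the last for changes that were not called in the first place. Whether replicate numbers pair the libraries is not settled. Correlations of same-numbered deviations ran from -0.053 to 0.158, and those of differently numbered ones from -0.116 to 0.072. The highest values, 0.158 and 0.138, were same-numbered, although not every library correlated best with its own number. With the replicate block the 409 genes called in MFN1-KD became 31 and the 1 member higher became 0. Genes called in MFN1-KD fell to 2 with no filter on low values and to 0 with only the 6 libraries compared (limma, 2724 at an unadjusted p under 0.05), and *Ube3a* was called in neither, nor after the GC and length correction. Leaving out 1 library gave 0 to 657 genes and 0 to 1 member, with 0 genes without control replicate 2 or 3 (2002 and 1986 at an unadjusted p under 0.05), 1 without H3.3-KD replicate 2, 39 without H3.3-KD replicate 1, 59 without control replicate 1, and 657 and 233 when replicate 2 or replicate 3 of MFN1-KD was left out. *Ube3a* lost its call without control replicate 2 or 3, H3.3-KD replicate 1 or 2, or MFN1-KD replicate 3.

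In H3.3-KD the members called higher were 0 with a mean of at least 10 FPKM, after either scaling and after the GC and length correction. They were 3 with only the 6 libraries compared, beside 2949 of 13011 genes, and 0 to 3 with 1 library left out. Members called lower were 4 after upper-quartile scaling, beside 1880 of 13011 genes, and 2 after the GC and length correction, beside 1311 of 12816. All genes called were 3608, with 2103 at a mean of at least 10 FPKM and 2339 to 4153 with 1 library left out, lowest without control replicate 3. Their higher share was 72.8%, against 56.0% after median-ratio scaling, 44.9% after upper-quartile scaling and 49.5% after the GC and length correction. Between the knockdowns 1 member was higher in MFN1-KD at a mean of at least 10 FPKM, beside 807 of 5933 genes. After upper-quartile scaling 6 members were higher, beside 2204 of 13011 genes. After the GC and length correction 4 were higher, beside 1590 of 12816 genes. Members lower in MFN1-KD were 0 with a pseudocount of 0.1, at a mean of at least 10 FPKM and after either scaling. They were also 0 with only the 6 libraries compared and after the GC and length correction, and 0 to 2 with 1 library left out. All genes called between them were 4585, and 2519 at a mean of at least 10 FPKM. At that mean *Peg3* and *Zrsr1* are not tested. The higher share was 26.8%, against 42.7%, 51.4% and 51.0% after the scalings and the correction.

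Log2 fold changes that changed sign in MFN1-KD were those of *Mest* (-0.238) and *Sfmbt2* (-0.1117) with a pseudocount of 0.1 and of *Zrsr1* (-0.0644) after the GC and length correction. In H3.3-KD they were those of *Gnas* (-0.5832) and *Ube3a* (0.2275) after that correction and of *Snrpn* after median-ratio (-0.0095) and upper-quartile scaling (-0.1998). Between the knockdowns *Sgce* gave 0.3112 and 0.4788 after these scalings. With 1 library left out, MFN1-KD values ran from -0.0155 to 0.4888 for *Grb10*, -0.086 to 0.5582 for *Igf2r*, -0.0341 to 0.4159 for *Mcts2*, -0.3973 to 0.559 for *Mest*, -0.2555 to 0.9623 for *Sfmbt2*, -1.1168 to 0.184 for *Snrpn*, -0.2636 to 0.1931 for *Usp29* and -0.1705 to 0.2988 for *Zrsr1*. H3.3-KD values ran from -0.2823 to 0.0865 for *Gab1*, -0.366 to 0.0133 for *Mcts2* and -0.2827 to 0.244 for *Ube3a*. Between the knockdowns they ran from -0.6398 to 0.7593 for *Cdkn1c*, -0.3064 to 0.569 for *Gnas*, -0.1112 to 0.4343 for *Phlda2*, -0.8603 to 0.3575 for *Sfmbt2* and -0.1743 to 0.0662 for *Sgce*. The cause was not tested for any of these.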

Other observations

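Among the genes that set, protect or erase imprints, 4 were called higher and 4 lower in the direct comparison of the knockdowns, where 9.44% and 25.8% of all genes were called. MFN1-KD exceeded H3.3-KD for *Ezh2* (log2 difference 1.82 ± 0.30, limma adjusted p = 0.00107) and *Suz12* (1.32 ± 0.26, adjusted p = 0.00295), subunits of Polycomb repressive complex PRC2, for *Smchd1* (1.48 ± 0.28, adjusted p = 0.00217), a structural protein of the inactive X and of imprinted clusters, and for *Dppa3*. All 4 were called in 17 of 17 alternatives. H3.3-KD was the higher group for *Mbd3*, *Zfp57*, *Hira* and *Ctcf*. *Hira* differed by -2.92 ± 0.57 (adjusted p = 0.00273) and stood at 12.2, 7.77 and 1.15 FPKM in MFN1-KD against 36.3, 43.6 and 63.9 in H3.3-KD.

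Of the 12 tested imprinted genes outside the members, 1 was called higher and 4 lower in MFN1-KD than in H3.3-KD, beside the same 9.44% and 25.8% of all genes. Those lower were *Ago2* (-2.49 ± 0.34), *Tssc4* (-2.24 ± 0.33), *Nap1l4* (-1.70 ± 0.25) and *Ddc* (-1.07 ± 0.36, limma adjusted p = 0.0385), called in 17 of 17, 15 of 16, 16 of 17 and 3 of 16 alternatives. The gene that was higher, *Inpp5f*, a phosphoinositide phosphatase, was at 6.02, 5.82 and 10.6 FPKM in MFN1-KD and 2.71, 2.79 and 3.33 in H3.3-KD, a difference of 1.06 ± 0.32 (adjusted p = 0.0237) called in 12 of 16 alternatives. Of 7 oocyte markers 6 were tested, and 0 were called by limma in either knockdown against control. Of all genes 1.09% were called higher and 2.05% lower in MFN1-KD, and 20.2% and 7.54% in H3.3-KD. *Zp3*, a zona pellucida gene and the most abundant of these markers, averaged 12.7 ± 2.85 FPKM in control, 14.9 ± 9.52 after MFN1-KD and 20.1 ± 3.02 after H3.3-KD. Between the knockdowns 1 marker was called, *Zp2*, another zona pellucida gene, beside 9.44% of all genes higher and 25.8% lower. *Zp2* was higher in MFN1-KD by 1.21 ± 0.40 (limma adjusted p = 0.0338) in 9 of 16 alternatives. *Oosp1* alone passed the threshold of the study, with -1.14 ± 0.38 in MFN1-KD against control, where 9.05% of all genes were lower.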
